A study of Mus musculus with 4 samples.

Results

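The Arp2/3 complex is the actin nucleator that starts a new filament as a branch on the side of an existing one. Its subunits are the actin-related proteins Arp2 and Arp3, encoded by Actr2 and Actr3, and the ARPC proteins encoded by Arpc1a or Arpc1b, Arpc2, Arpc3, Arpc4 and Arpc5 or Arpc5l. The complex is inactive until WASP-family proteins bind it, and the branched networks it builds push out lamellipodia and drive endocytosis and phagocytosis in fibroblasts, leukocytes and endothelial cells. Sunitinib, the drug given here, blocks receptor tyrosine kinases, among them the receptors for VEGF and PDGF.

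The 9 subunit genes were looked up among the array features for which the platform annotation gives exactly 1 gene symbol. This found 8 probes of 7 genes, out of 45220 features and 19087 named genes. Arpc4 had 2 probes, and Actr3, Arpc1a, Arpc1b, Arpc2, Arpc5 and Arpc5l had 1 each. Actr2 and Arpc3 had no probe under this rule and are not analysed here. The complex was chosen by the lower Arpc2 values of the sunitinib arrays, so that the values of the Arpc2 probe are a description, with no test.

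The samples were 4 xenografts in immunodeficient mice, formed by the human cell line MDA-MB-231, which was derived from triple-negative breast cancer. Sunitinib at 40 mg/kg/day was given for 2 of them and vehicle alone for the other 2, and no other allele or agent is given in the labels. The series title speaks of treatment withdrawal, while the labels do not state when tumours were taken relative to dosing, the strain or age of the mice, or whether replicates were separate animals, so that the spread between replicates may be technical. Each single-colour (Cy3) mouse array therefore reads the host cells of a human tumour, together with any human transcript that binds a mouse probe, and these 2 sources cannot be told apart. In such bulk RNA, fewer cells of a type and less RNA per cell cannot be told apart either.

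Replicate 1 of both groups lay on 1 slide and replicate 2 on another, so that sunitinib could be compared with vehicle within each slide. Values are the deposited log2 intensities, on which most features sat near a floor (5th percentile 8.48 or 8.49, median 8.89 or 8.90) and values of 15.95 or more are saturated. Every subunit gene lay above the median of all genes (9.08), with 4-array means from 10.42 for Arpc5l to 15.77 for Arpc1b. Xist, expressed from the inactive X chromosome of female cells, was 8.97 and 8.96 in the sunitinib arrays, compared with 12.19 and 12.26 in the vehicle arrays, and Eif2s3y, on the Y chromosome, read 10.21 and 10.02 against 8.46 and 8.58. Both genes thus separated the arrays by treatment group, in the way that female hosts with vehicle and male hosts with sunitinib would. The labels do not give the sex of the mice. In every difference below, a difference in host sex cannot be told apart from treatment. On the slide 2 arrays bright features differed by position, with a local median of sunitinib minus vehicle of -0.5 or less over 9.47% of array positions (2.07% on slide 1). Around the Arpc1a probe, bright features deviated from their 4-array means by a median of -0.66 in sunitinib replicate 2. In vehicle replicate 2 that median was 0.33. Subunit values are also given without sunitinib replicate 2, which does not remove a shift of vehicle replicate 2.

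**Figure D1:**
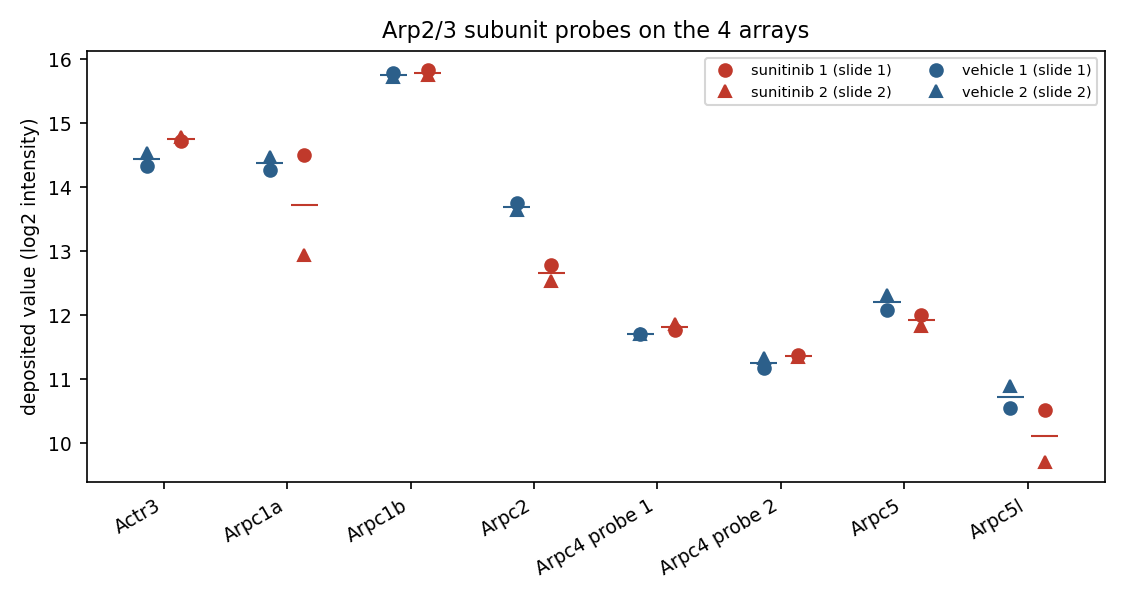
Deposited log2 intensity (vertical axis) of each of the 8 Arp2/3 subunit probes (horizontal axis) on the 4 arrays. Circles are arrays of slide 1, triangles arrays of slide 2, and the short lines are group means of 2 arrays. Arpc2 is lower in both sunitinib arrays, whereas the low sunitinib means of Arpc1a and Arpc5l come mainly from sunitinib replicate 2.

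Of the core of the complex, Arpc2 and Arpc4 were measured. Their proteins form the scaffold that anchors the complex to the mother filament. Arpc2 read 12.79 and 12.53 in sunitinib replicates 1 and 2, against 13.75 and 13.64 in vehicle replicates 1 and 2. The group means differed by -1.04 log2 units (SE 0.12, n = 2 arrays in each group), equivalent to 2.05-fold lower with sunitinib, with -0.96 on slide 1 and -1.11 on slide 2. Both sunitinib arrays lay below both vehicle arrays, as for 22.3% of all genes. The gap between groups was larger than the gaps between replicates (0.26 and 0.11). Of the 5283 genes with a mean above 10, 55 including Arpc2 had a difference at least as low. The complex was chosen by this difference, so nothing is read from that rank.

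Arpc4, the scaffold partner of Arpc2, did not show such a difference on either probe. Its brighter probe read 11.77 and 11.87 with sunitinib, where both vehicle arrays read 11.70 (difference 0.12, SE 0.09). The second probe read 11.38 and 11.34 against 11.18 and 11.33 (difference 0.11, SE 0.09). On both probes the sunitinib arrays lay just above the vehicle arrays, by a margin close to the gaps between replicates.

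Actr3 encodes Arp3, which with Arp2 mimics the first actin subunits of the daughter filament. It was 14.73 and 14.79 in the sunitinib arrays, compared with 14.34 and 14.54 in the vehicle arrays, a difference of 0.32 (SE 0.10, n = 2 per group), with 0.39 on slide 1 and 0.25 on slide 2. The groups did not overlap (both sunitinib arrays higher, as for 25.9% of all genes). The direction was opposite to that of Arpc2 on both slides.

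Arpc1a and Arpc1b encode alternative forms of the WD-repeat subunit that helps to bind WASP-family activators. Arpc1b is the main form in human blood cells, and in the GRCm38.p6 annotation the genes are neighbours, with 0 protein-coding genes between them. Arpc1b was 15.83 and 15.75 in the sunitinib arrays, compared with 15.79 and 15.72 in the vehicle arrays (difference 0.04, SE 0.09), and the groups overlapped. These values lie just below saturation, where differences are compressed. Arpc1a was 14.50 and 12.94 in the sunitinib arrays, compared with 14.27 and 14.48 in the vehicle arrays (difference -0.66, SE 0.50). Sunitinib replicate 2 alone was low, so that the difference was 0.23 on slide 1 and -1.54 on slide 2, and without that array it was 0.13.

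Arpc5 and Arpc5l encode alternative forms of the small subunit that tethers Arp2 to the rest of the complex. Arpc5 was 12.00 and 11.83 in the sunitinib arrays, compared with 12.08 and 12.31 in the vehicle arrays (difference -0.28, SE 0.12), with -0.08 on slide 1 and -0.48 on slide 2. Arpc5l read 10.52 and 9.70 against 10.55 and 10.89 (difference -0.61, SE 0.29), with -0.03 on slide 1 and -1.19 on slide 2. Both sunitinib arrays were lower than both vehicle arrays for both genes, but on slide 1 the margins were within the gaps between replicates. Without sunitinib replicate 2 the differences were -0.20 for Arpc5 and -0.20 for Arpc5l.

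In a limma fit over 31587 named values, 0 of the 7 probes other than Arpc2 passed an adjusted p (Benjamini-Hochberg) of 0.05, 1 (Actr3) had an unadjusted p under 0.05, beside 13.8% of all values, and the adjusted p ran from 0.341 to 0.867. Over all values 2 passed, or 0.00633%, namely Xist and Scd1, a fatty acid desaturase. By the coarser count of arrays that do not overlap, 3 of the 7 subunit genes were lower in both sunitinib arrays, beside 22.3% of all genes, and 2 were higher, beside 25.9%. The rule used this contrast, so nothing is read from these shares. The median difference over the 7 genes was -0.28, with 0.04 on slide 1 and -0.48 on slide 2, where the medians over all genes were 0.005, 0.00 and 0.02. The 7 genes include Arpc2, by which they were chosen, so nothing is read from this comparison either. Without sunitinib replicate 2 the median of the subunits was 0.07.

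The shift of the log2 ratio between paralogous subunits was compared by a two-sided exact permutation test, in which 2 arrays against 2 cannot go below p = 0.333. The Arpc1b to Arpc1a ratio was 0.69 higher with sunitinib (exact p = 0.667), by -0.19 on slide 1 and 1.57 on slide 2. The Arpc5 to Arpc5l ratio was 0.33 higher (exact p = 0.667), by -0.05 and 0.71. Both shifts lay on slide 2, and neither exceeded the spread between arrays.

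Feature numbers point to an array layout with 85 columns and 532 rows, in which bright features (4-array mean above 10) that neighbour each other differed together. The cause of these shared shifts was not tested. The Arpc5l and Arpc1a probes lie in the same array row, 12 columns apart. Among the 70 other bright features within 10 rows and columns of the Arpc1a probe, the median difference was -0.14 on slide 1 and -1.03 on slide 2, and 68 of them were lower with sunitinib on slide 2. Around Arpc5l the medians over 82 features were -0.22 and -0.85. Over all 7882 bright features they were 0.00 and 0.06.

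**Figure D2:**
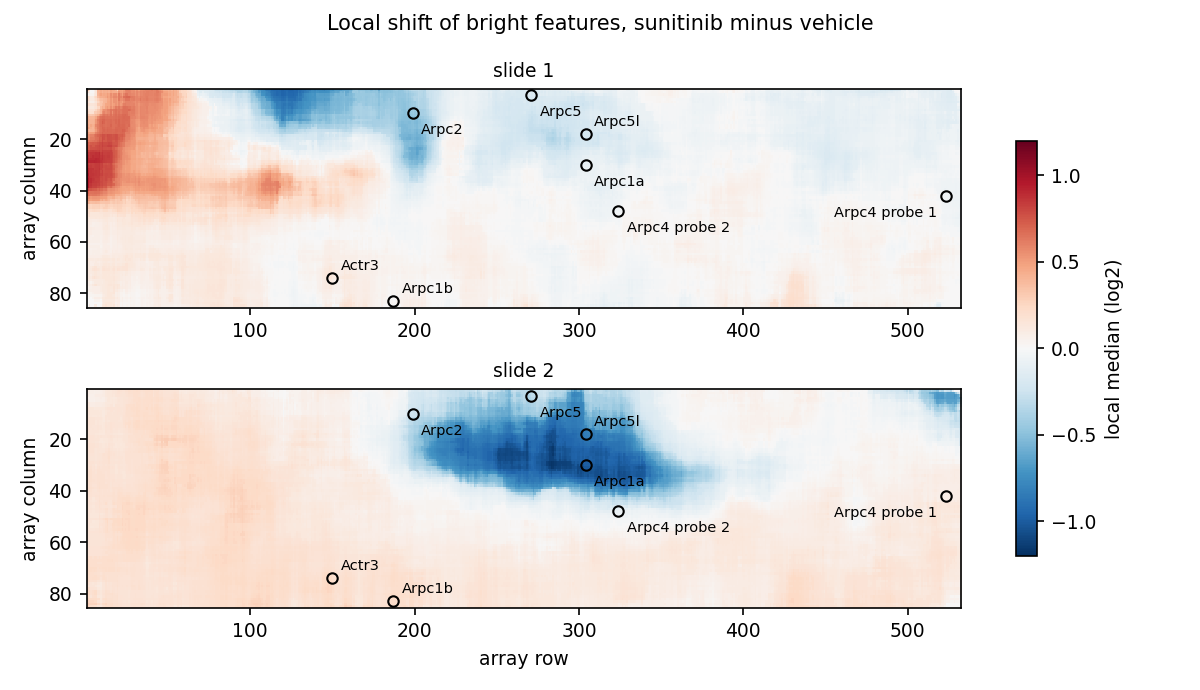
Local median of sunitinib minus vehicle (colour, log2) over bright features within 10 rows and columns, by array row (horizontal axis) and array column (vertical axis), for slide 1 (upper panel) and slide 2 (lower panel). Circles mark the 8 subunit probes. Arpc5l and Arpc1a lie inside a region of slide 2 where bright features were lower, and Arpc2 lies at the border of lower regions on both slides.

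Probes printed in 8 to 20 copies across each array allow spots of the same probe to be compared between places. Near the Arpc1a probe lay 6 bright spots of such probes, and in sunitinib replicate 2 their median was -0.58 relative to the copies of the same probe on that array. It was 0.06 in sunitinib replicate 1, 0.12 in vehicle replicate 1 and 0.28 in vehicle replicate 2. The 6 such spots near Arpc5l, whose window overlaps that of Arpc1a, had medians of 0.04 and -0.58 in the sunitinib arrays and 0.18 and 0.29 in the vehicle arrays. Near the second Arpc4 probe the 6 copies were also low in sunitinib replicate 2 (-0.30, against 0.33 in vehicle replicate 2), although its 76 bright neighbours had a slide 2 median of only -0.07, so that the 2 measures differed there. With 3 to 9 spots near each subunit probe these medians are coarse.

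Around Arpc2 the 63 bright neighbours had a median difference of -0.45 on slide 1 and -0.24 on slide 2, against -0.96 and -1.11 for Arpc2 itself. Within 5 rows and columns, where 19 bright features lay, the medians were -0.51 and -0.32. Arpc2 was thus lower than most of its surroundings, which were themselves lower with sunitinib. Of the 63 neighbours 3 had a difference at least as low as Arpc2, namely Lrrn4cl (-1.12), the ribosomal protein gene Rpl27 (-1.10, at 2 rows and 2 columns) and a feature with no gene name here (-1.10), all named after their values were seen. The 4 bright spots of replicated probes near Arpc2 had medians of -0.31 and -0.19 in the sunitinib arrays and 0.10 and -0.04 in the vehicle arrays, relative to their copies elsewhere.

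**Figure D3:**
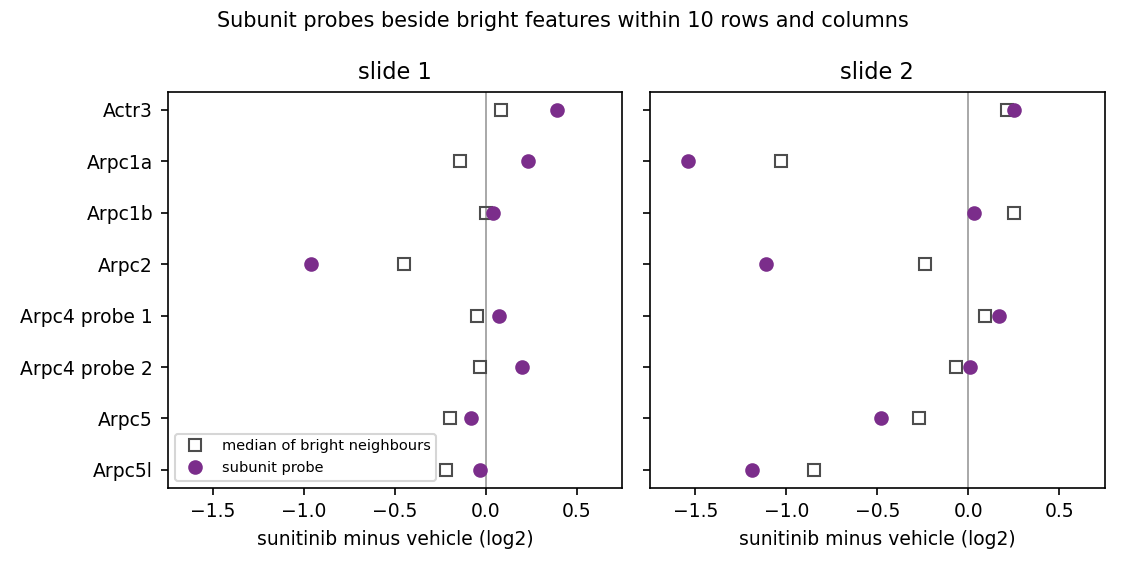
Sunitinib minus vehicle (log2, horizontal axis) of each subunit probe (filled circles) and the median of its bright neighbours within 10 rows and columns (open squares), for slide 1 (left) and slide 2 (right). The neighbours of Arpc1a and Arpc5l are low on slide 2, as those probes are, and Arpc2 lies below its neighbours on both slides.

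Subtracting from each bright feature the median deviation of its bright neighbours on the same array, a step added after the data were seen, moved most subunits towards 0. Arpc1a went from -0.66 to -0.11, Arpc5l from -0.61 to -0.09 and Arpc5 from -0.28 to -0.05. Removing the running median over all features, the planned correction, moved them less, to -0.53, -0.41 and -0.10, with Arpc2 at -0.92. How far the differences of Arpc1a and Arpc5l shrank thus depended on the correction. Arpc2 kept the largest difference of the subunits at -0.70 (SE 0.15), or 1.62-fold lower with sunitinib. Its corrected values were 13.02 and 12.67 with sunitinib against 13.55 and 13.53 with vehicle, which still did not overlap (both lower, as in 25.8% of 6354 bright values after the same step), with -0.53 on slide 1 and -0.87 on slide 2.

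Actr3 was 0.17 (SE 0.11) after the subtraction, with 0.28 on slide 1 and 0.06 on slide 2. Before it, the 89 bright neighbours of Actr3 had a median difference of 0.08 on slide 1 and 0.21 on slide 2. Of these neighbours, 24 had a difference at least as high as Actr3. The Arpc4 probes were at 0.11 and 0.17, and Arpc1b at -0.08. Both probes of Arpc4 and that of Actr3 stayed higher in both sunitinib arrays, a pattern seen in 25.7% of the bright values, and the other 4 probes beside Arpc2 overlapped between groups. The ratio shifts of the paralogues shrank to 0.03 for Arpc1b over Arpc1a and 0.04 for Arpc5 over Arpc5l (exact p = 1.0 for both). The 0 passes among the 7 probes other than Arpc2 held in limma, with 0 at an unadjusted p under 0.05 (14.5% of the 6354 bright values) and adjusted p from 0.456 to 0.882, where 1 of the 6354 passed (0.0157%). The median over the 7 genes, Arpc2 included, was -0.08.

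The genes whose profile over the 4 arrays was closest to that of Arpc2 were sought by the root mean square distance between log2 values, each centred on its own mean. The closest 5 were the splicing factor Smndc1 (distance 0.0158), the protein-tyrosine sulfotransferase Tpst1 (0.0402), the splicing factor Puf60 (0.0482), the myosin phosphatase subunit Ppp1r12a (0.0758) and the cytokine Il34 (0.0804). Of these, Smndc1, Puf60 and Tpst1 are printed 5, 5 and 6 array rows from Arpc2, and 18, 7 and 11 columns away. The probes of Ppp1r12a and Il34 lie 95 and 51 rows away, but only 1 and 5 columns.

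These genes were picked because their brightest probes matched Arpc2 in the same data. Their other probes are therefore likely to match less well wherever they lie, and are given as a description. Smndc1 differed by -1.04 near Arpc2 and by 0.10 on a probe 232 rows away, and Ppp1r12a by -1.07 and by 0.38 on a probe 289 rows from Arpc2. The other probes of Puf60, both dimmer, were at -0.40 and -0.35, against -0.98 for its brightest. Arpc2 has 1 probe here, so that no such comparison could be made for it. In the platform annotation that probe is listed under a sequence that is not a RefSeq transcript, unlike the other subunit probes.

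The genes that act with the complex were taken from 7 lists by role, with 86 of 92 listed genes named on the array, each read by its brightest probe. In limma 0 of the 86 passed, in either direction, beside 0.0105% of all genes, and 9 (10.5%) had an unadjusted p under 0.05, beside 14.7% of all genes. Of the 86, 11 (12.8%) were lower in both sunitinib arrays, beside 22.3% of all genes, and 28 (32.6%) were higher, beside 25.9%. In the other 47 the groups overlapped. After the neighbour subtraction, 0 of the 50 bright ones passed, and 6 (12%) had an unadjusted p under 0.05, beside 14.5% of all bright values. Of these 50, 6 (12%) were lower and 15 (30%) higher without overlap, beside 25.8% and 25.7%.

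**Figure D4:**
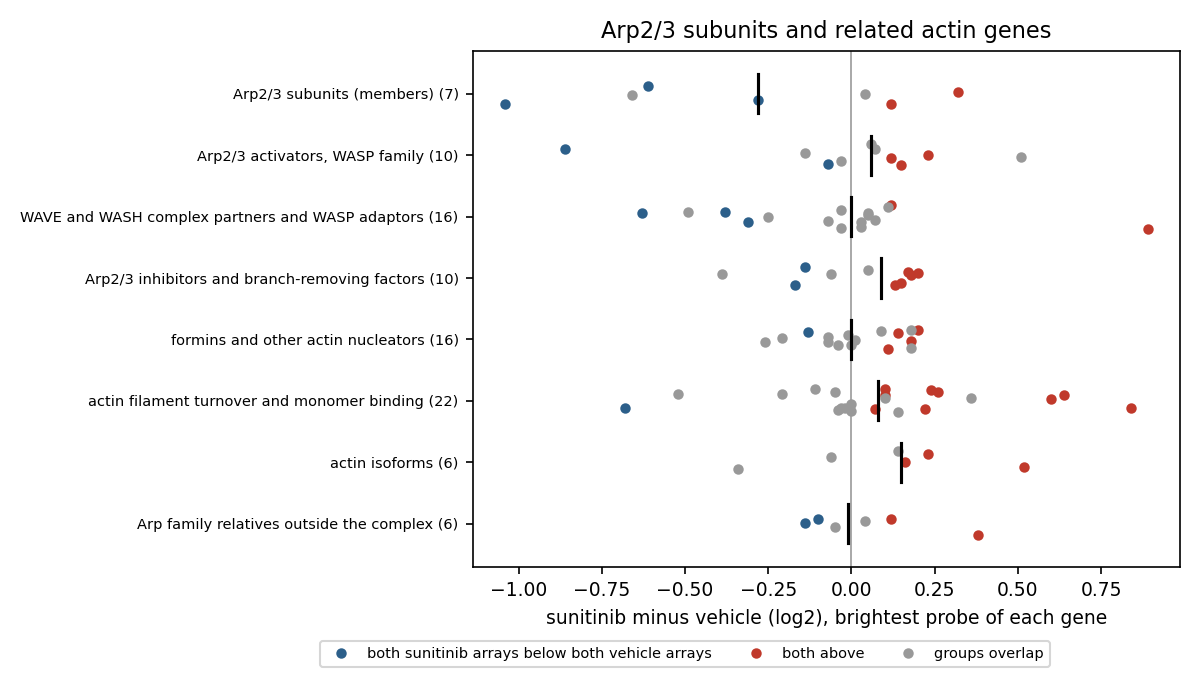
Sunitinib minus vehicle (log2, horizontal axis) for the brightest probe of each gene in the subunit list and 7 lists of related actin genes, with the number of genes in brackets. Each point is a gene, coloured by whether the 2 groups of 2 arrays overlap, and black bars are list medians. Arpc2 is the lowest point at -1.04, and the list medians range from -0.28 to 0.15.

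Among the direct activators of the complex, 2 of 10 genes (20%, beside 22.3% of all genes) were lower in both sunitinib arrays and 3 (30%, beside 25.9%) higher, with a median of 0.06. Hcls1, the cortactin relative of blood cells, read 13.87 and 13.93 against 13.62 and 13.73 (difference 0.23, SE 0.09, and 0.14 after the neighbour subtraction). Washc1, which activates the complex on endosomes, differed by -0.19 on slide 1 and -1.53 on slide 2, and its difference of -0.86 became -0.32 after the subtraction. Wasl, which encodes N-WASP, differed by 1.02 on slide 1 and -0.01 on slide 2, and by -0.38 on its second probe.

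Of 16 partners in the WAVE and WASH complexes and WASP adaptors, 3 (18.8%, beside 22.3% of all genes) were lower and 2 (12.5%, beside 25.9%) higher without overlap, with a median of 0.00. Wipf1, the WASP-interacting protein, read 12.08 and 11.56 against 10.62 and 11.25 (difference 0.89, SE 0.27, and 0.60 after the subtraction), while its second probe differed by -0.69. Abi1, a WAVE subunit, went from -0.63 to 0.06 with the subtraction, and Washc5 from -0.38 to -0.13. The second probes differed by 0.13 for Abi1 and by -0.37 for Washc5.

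Inhibitors of the complex and factors that remove branches had a median of 0.09 over 10 genes, with 2 (20%, beside 22.3% of all genes) lower and 5 (50%, beside 25.9%) higher. The sign of that median did not hold, since it was -0.001 when all probes of each gene were averaged, -0.14 over the 5 bright genes and -0.03 for these after the neighbour subtraction. Gmfg, the haematopoietic glia maturation factor that removes branches, differed by -0.17 (SE 0.08, second probe 0.13) and by -0.27 after the subtraction, the coronin Coro1c by 0.15 (SE 0.09) and Coro2a by 0.17 (SE 0.09, second probe -0.04). Formins and other nucleators, which start unbranched filaments, had a median of 0.00 over 16 genes, with 1 lower (6.25%, beside 22.3% of all genes) and 4 higher (25%, beside 25.9%). Their genes of smallest p were Diaph1 (0.18, SE 0.09, second probe 0.04), Fmnl2 (0.20, SE 0.10, second probe 0.34) and Inf2 (-0.21, SE 0.14).

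In the list of filament turnover and monomer binding, 9 of 22 genes were higher in both sunitinib arrays, or 40.9% beside 25.9% of all genes. In this list 1 gene was lower (4.55%, beside 22.3%) and 12 overlapped, with a median of 0.08 (0.015 when all probes of each gene were averaged). The 12 include Tmsb4x and Tmsb10, whose brightest probes were saturated on all 4 arrays and so could hardly move. Pfn1, encoding profilin, which feeds actin monomers to growing filaments, was 14.67 and 15.01 in the sunitinib arrays, compared with 14.19 and 14.21 in the vehicle arrays (difference 0.64, SE 0.13, and 0.49 after the subtraction). Pfn2 differed by 0.60 (SE 0.12, second probe -0.21) and the capping protein gene Capza2 by 0.84 (SE 0.28, second probe 0.31). Over the 18 bright genes of this list the median was 0.10, and 0.04 after the subtraction.

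Of 6 actin isoforms 3 (50%, beside 25.9% of all genes) were higher, 0 (beside 22.3%) were lower and 3 overlapped. Their median of 0.15 was -0.05 on slide 1 and 0.41 on slide 2, and -0.143 without vehicle replicate 2. Actb, encoding beta-actin, read 13.17 and 13.30 against 12.58 and 12.85 (difference 0.52, SE 0.12), with 0.59 on slide 1, 0.45 on slide 2 and 0.45 after the subtraction. Actg2, a smooth muscle actin, differed by 0.23 (SE 0.11), with 0.08 on slide 1, and by 0.27 after the subtraction. Actg1 was at 0.16 (SE 0.08, second probe 0.04), and at -0.11 after the subtraction, where the median of the 6 isoforms was 0.02. Actin-related proteins outside the complex had a median of -0.01 over 6 genes, with 2 (33.3%, beside 22.3%) lower and 2 (33.3%, beside 25.9%) higher. Among them were Actl6a, a chromatin-remodelling subunit (0.38, SE 0.10, second probe -0.05), Actr1a, of dynactin (-0.14, SE 0.09), and Actr5, of another chromatin-remodelling complex (-0.10, SE 0.09, second probe 0.02).

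Markers of the host cells lay above the median level of all genes for every named fibroblast, leukocyte, endothelial and pericyte marker, for 4 of 6 adipocyte markers and for 2 of 6 skeletal muscle markers. Fibroblast markers were lower in both sunitinib arrays for 5 of 8 genes (62.5%, beside 22.3% of all genes) and higher for 0 (beside 25.9%). The 5 include Col1a1 at -0.08, which was saturated on 1 array. The log2 summed level of the 8 markers was 17.77 and 17.75 with sunitinib against 17.93 and 17.83, and without the 3 collagens saturated on some array it was 15.08 and 14.96 against 15.82 and 15.21. Among them, Thy1 differed by -0.49 (SE 0.12, second probe -0.01) and Pdgfra by -0.79 (SE 0.22). After the neighbour subtraction Thy1 was at -0.59 and Pdgfra at -0.55. Leukocyte markers, of cells rich in Arpc1b, had 2 lower (25%, beside 22.3%) and 1 higher (12.5%, beside 25.9%) of 8 genes. Their summed levels of 17.51 and 17.59 against 17.50 and 17.55 rest on Lyz2 and Cd74, saturated on all 4 arrays, so that these sums could hardly move. Over the other 6 genes the levels were 15.81 and 15.97 against 15.79 and 15.85, with Cd14 at -0.71 (SE 0.24) and Adgre1 at 0.28 (SE 0.17, second probe 0.11).

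Endothelial markers had 1 lower (12.5%, beside 22.3% of all genes) and 3 higher (37.5%, beside 25.9%) of 8 genes (summed levels 14.94 and 14.55 against 14.56 and 14.88), with Vwf at -0.73 (SE 0.10, other probes -0.50 and -0.25) and Esam at 0.21 (SE 0.08). Pericyte and smooth muscle markers had 2 lower (33.3%, beside 22.3%) and 2 higher (33.3%, beside 25.9%) of 6 genes, with a median of -0.08. Their summed levels were 14.41 and 14.08 against 15.11 and 14.74. Pdgfrb, at -1.28 (SE 0.41), differed by -0.67 on slide 1 and -1.89 on slide 2, and by -0.85 after the neighbour subtraction. Cnn1, at 0.55 (SE 0.23), differed by 0.09 on slide 1 and 1.01 on slide 2. Adipocyte markers were higher for 4 of 6 genes (66.7%, beside 25.9% of all genes) and lower for 0 (beside 22.3%). Their summed levels were 14.75 and 14.33 against 14.14 and 14.01, with Adipoq at 2.33 (SE 0.21) and Plin1 at 1.19 (SE 0.14). Skeletal muscle markers overlapped in all 6 genes, with 0 lower (beside 22.3% of all genes) and 0 higher (beside 25.9%). Their summed levels were 12.81 and 12.29 against 12.89 and 11.72, with Myh4 at 1.22 (SE 0.92, second probe 0.71) and Acta1 at 0.14 (SE 0.38). In limma 0 of the 42 marker genes passed, 8 (19.0%) had an unadjusted p under 0.05, beside 14.7% of all genes, and the part of these cell types in the subunit values was not tested.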

How the data were processed

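RNA of 4 xenografts (0.5 µg, RIN 9) was hybridised to Cy3 mouse arrays, per the labels. The authors deposited 1 log2 value per feature and array, already normalized between arrays. The submitters' processing notes name limma, with no version. How background was corrected and arrays were normalized is not given in the sources used here. Values ran from 6.75 to 16.34, which gave the log2 scale. Detection flags were not used here. Precision is limited by the number of arrays.

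Gene names came from the platform annotation, in which 33653 had 1 gene, 56 several and 11511 were not listed. Of the first, 99.6% had their gene number in RefSeq's gene table (GRCm38.p6). Probes with 8 to 20 copies (217) were combined by their median, which gave 31587 tested values, and the brightest probe stood for a gene. Treatment was the single factor in lmFit and eBayes (limma 3.58.1, R 4.3.3), and the fit was tested on simulated data. P-values were adjusted over all 31587 values, with a threshold of 0.05. A running median over 21 by 21 features measured shifts shared by neighbouring features, on a grid borne out by the lag of 85 features at which deviations correlated most on every array among lags above 40.

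The array titles put both arrays of replicate 1 on 1 slide and both of replicate 2 on another. Arrays of equal replicate number thus share a slide and are paired. Same-slide deviations from the group means correlated at -0.225. The slide block was an alternative, with other normalizations, filters, priors, a floor, the mean of a gene's probes, position corrections and leaving out each array. On each slide vehicle is array 1 and sunitinib array 2, and the array's number on the slide cannot be told apart from treatment.

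The members, lists and alternatives were chosen with earlier results of these data known. Genes named were all member probes, the 3 of smallest p above the median level (9.08) from each pathway list, up to 2 from each marker list, Xist, Eif2s3y and the 5 genes closest to Arpc2. Not named on the array were Actr3b, Actr1b, Actr10, Cyfip1, Washc4, Fmnl3, Cd68 and Csf1r, so that the planned Actr3b to Actr3 ratio was not analysed here. Another planned pathway list is not reported here.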

Additional observations from a re-analysis of the deposited data

How the results depend on the processing

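With 2 arrays per group, no subunit probe other than Arpc2 passed in limma under any of the 15 alternatives that give a value per probe (lowest adjusted p = 0.321, Actr3). In those 15 Arpc2 stayed lower, from -1.17 to -0.70, and Actr3 higher, from 0.17 to 0.42, whereas Arpc1a ran from -1.44 to 0.13 and Arpc1b, near saturation, from -0.09 to 0.08.

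The median over the 7 subunit genes, Arpc2 included (-0.28), was 0.07 without sunitinib replicate 2 and -0.395 without vehicle replicate 1, the range of leaving out 1 array. It was -0.079 with the bright-neighbour trend removed, with or without the slide block, and -0.099 with the trend over all features removed. The calls over all values (2) became 0 with the slide block, with crossed replicate numbers, with the block and the bright-neighbour trend removed, and without any 1 array (0 to 0). They became 1 without dim probes, with the floor, with bright features alone, with the bright-neighbour trend removed and with the mean of a gene's probes, and 4 with the trended robust prior and with the position trend removed. The block and leaving out an array leave 1 residual degree of freedom in place of 2, and fewer values are tested where features are left out. The slide block and the crossed replicate numbers could not change a difference, since each block holds 1 array of each group. The trended robust prior alters variances alone, and leaving out features alters no difference of a single probe. Of the other values (single probes and lists, over all alternatives), 262 moved by less than 1 SD between replicates and 66 by more. The 262 include values that could not move, so this count does not measure stability.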
